A study of Mus musculus with 16 samples.

Results

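Arginine and tryptophan metabolism enzymes were examined in RNA-seq libraries of macrophages from mouse liver cancer. The set was fixed by gene symbol and held 10 genes, Arg1, Arg2, Nos2, Slc7a2, Ass1, Asl, Odc1, Ido1, Ido2 and Il4i1, all of which were found among the 26931 genes of the deposited FPKM table. Cells of WT mice bearing liver tumours had been enriched magnetically for F4/80, the macrophage surface protein encoded by Adgre1. The labels describe 16 samples, 4 each from mice given anti-PD-1/CX3CR1, anti-CX3CR1, anti-PD-1 or control IgG; the labels name no tumour model, dose or age. The table holds 15 libraries, whose headers carry a number from 1 to 16 without the number 2, and no label ties a number to a treatment. The libraries are therefore described by their numbers, every level is given without a treatment, and no comparison between treatments was made.

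Arginine is the common substrate of competing enzymes in macrophages. Nitric oxide synthase 2 (Nos2) turns it into nitric oxide and citrulline, while the arginases (cytosolic Arg1 and mitochondrial Arg2) split it into urea and ornithine, which ornithine decarboxylase (Odc1) commits to polyamines. Argininosuccinate synthase (Ass1) and argininosuccinate lyase (Asl) rebuild arginine from citrulline, and the cationic amino acid transporter encoded by Slc7a2 brings arginine into the cell. The dioxygenases encoded by Ido1 and Ido2 open the kynurenine pathway of tryptophan breakdown, and Il4i1 encodes a secreted amino acid oxidase that also acts on tryptophan. In mouse macrophages Arg1 and Nos2 are widely used as markers of alternative and classical activation.

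All 12 genes of a macrophage marker list had a median of at least 1 FPKM (a level scaled to gene length and library size, so that different genes can be set side by side). Lyz2, which encodes lysozyme, ranged from 4257 to 6163 FPKM, Csf1r from 171 to 221 FPKM and Adgre1 from 67.4 to 88.4 FPKM. Transcripts of other cells were present as well. The summed level of 9 T cell markers ranged from 30.9 to 161 FPKM and that of the 9 hepatocyte markers found in the table from 87.5 to 423 FPKM, and no gene of either list was at 0 in every library. Low FPKM values fell on steps of whole reads, from which the depth of the libraries was estimated at 37.2 to 40.6 M reads (M for the prefix mega). No library was identical to another in any of the 105 pairs, and the variance between a pair was 2.86 to 9.85 times that of read sampling over 3431 low genes. Clustered on all other genes with a median of at least 1 FPKM, the libraries were divided into 4 sets, which were libraries 1, 3 and 4, libraries 5 to 8, libraries 9 to 12 and libraries 13 to 16. The number of sets was chosen. With 3 sets, libraries 1, 3, 4 and 13 to 16 stood together, and with 2 sets libraries 5 to 8 stood apart from all others. The sets came from the data, and no label says whether they match the study's groups. Nothing in the labels says that samples came from separate animals.

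Arg1 and Odc1 were the most abundant members. Arg1 had a median of 782 FPKM and stood at place 108 among all genes of the table by median level, and Odc1 had a median of 392 FPKM and stood at place 210. Ass1 followed with a median of 81.9 FPKM, Arg2 with 70.3 FPKM, Nos2 with 66.4 FPKM, Slc7a2 with 39.1 FPKM and Asl with 13.3 FPKM. Arg1 exceeded Odc1 in 15 of 15 libraries, although the lowest Arg1 value, 430.4 FPKM, lay below the highest Odc1 value, 447 FPKM. Ass1 exceeded Arg2 in 11 of 15 libraries and Arg2 exceeded Nos2 in 9 of 15, so the order of these 3 enzymes changed from library to library. The ranges of Nos2, Slc7a2 and Asl did not overlap with each other. Ido1, Il4i1 and Ido2 were far below, with medians of 0.260, 0.0742 and 0.0448 FPKM.

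**Figure D1:**
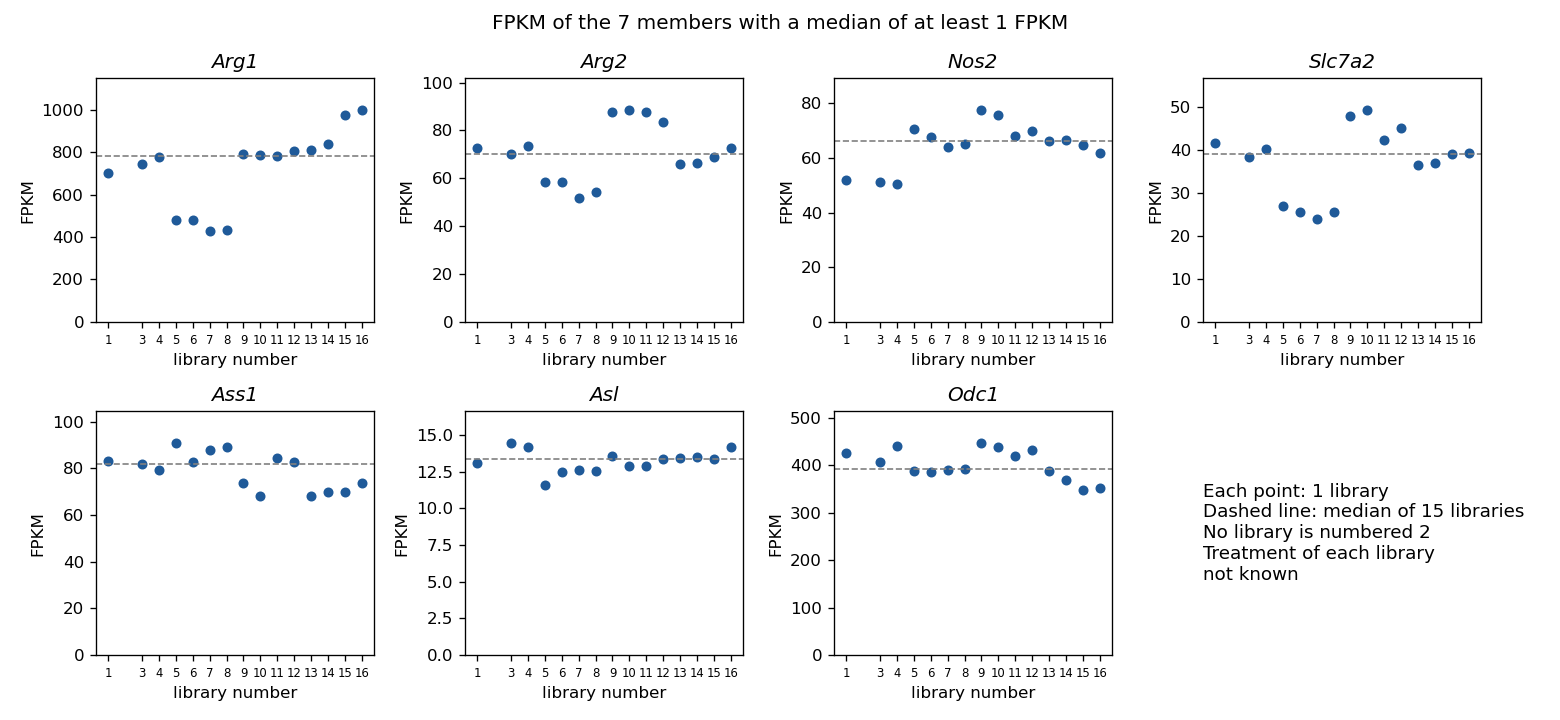
FPKM (vertical axis, starting at 0) of the 7 members with a median of at least 1 FPKM against library number, with 1 point per library and a dashed line at the median of the 15 libraries. Arg1, Arg2, Slc7a2 and Asl have their 4 lowest points in libraries 5, 6, 7 and 8, and Nos2 has its 3 lowest in libraries 1, 3 and 4.

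Arg1 varied most among these 7 genes. Its level was lowest in library 7 at 430.4 FPKM, had a median of 782 FPKM and was highest in library 16 at 998 FPKM. Libraries 5, 6, 7 and 8 lay between 430.4 and 482 FPKM, and the other 11 lay between 703 and 998 FPKM, with no overlap. The 4 highest values were in libraries 13, 14, 15 and 16, and libraries 15 and 16 stood above all others at 974 and 998 FPKM. The highest Arg1 value was 2.32 times the lowest, a ratio reached by 2.72% of the 4628 genes with a median of at least 10 FPKM, for which the median ratio was 1.35. The median ratio over the 7 members was 1.54. Arg1 spans 24915221 to 24927484 of chromosome 10 (minus strand), as placed by GENCODE M21 on GRCm38 (mm10), the source of all gene positions given here.

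Arg2, the mitochondrial arginase, was below Arg1 in every library. It ranged from 51.7 FPKM in library 7 through a median of 70.3 FPKM to 88.4 FPKM in library 10. Libraries 5, 6, 7 and 8 again held the 4 lowest values, and libraries 9, 10, 11 and 12 held the 4 highest, between 83.4 and 88.4 FPKM. The Arg1 to Arg2 ratio was lowest at 7.98 in library 8, had a median of 9.67 and was highest at 14.2 in library 15. Arg2 spans 79130777 to 79156301 of chromosome 12 (plus strand). Its exons overlap those of Vti1b and Gm48780 in the annotation, and the labels do not say whether reads were assigned by strand, so its reads cannot be told apart from theirs with certainty.

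Slc7a2, the inducible arginine transporter, was low and high in the same libraries as Arg2. Its level was lowest in library 7 at 23.9 FPKM, had a median of 39.1 FPKM and was highest in library 10 at 49.2 FPKM. Libraries 5, 6, 7 and 8 lay between 23.9 and 27.0 FPKM and the other 11 between 36.6 and 49.2 FPKM. The ratio of highest to lowest was 2.06, reached by 4.04% of genes with a median of at least 10 FPKM. Slc7a1, the transporter of the same family that most cells express, had a median of 10.96 FPKM and a narrower range of 9.45 to 12.6 FPKM. The Slc7a2 to Slc7a1 ratio was accordingly lowest at 2.06 in library 7, with a median of 3.63 and a highest value of 4.77 in library 12. Slc7a2 spans 40862396 to 40922308 of chromosome 8 (plus strand), where the exons of Gm26584 overlap its exons. As for Arg2, its reads cannot be told apart from those of Gm26584 with certainty.

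Nos2 followed a different order of libraries. It ranged from 50.5 FPKM in library 4 through a median of 66.4 FPKM to 77.6 FPKM in library 9. Its 3 lowest values, 50.5, 51.3 and 51.9 FPKM, were in libraries 4, 3 and 1, and the lowest value outside them was 61.9 FPKM in library 16. In libraries 5, 6, 7 and 8, where Arg1 was lowest, Nos2 lay between 63.9 and 70.7 FPKM, around its median. Nos2 spans 78920787 to 78960254 of chromosome 11 (plus strand), with no overlapping gene in the annotation.

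The ratio of Arg1 to Nos2 within a library does not depend on how libraries are scaled. It was between 6.67 and 7.13 in libraries 5 to 8 and between 10.2 and 16.1 in the other 11, with a median of 11.6 over all 15 libraries. The highest ratio, 16.1, was in library 16, and library 4 followed at 15.4. These high ratios came about differently, since library 16 had the highest Arg1 level with Nos2 at 61.9 FPKM, and library 4 had an Arg1 level of 775 FPKM with the lowest Nos2 level. Both transcripts were abundant in every library, and none had more Nos2 than Arg1.

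**Figure D2:**
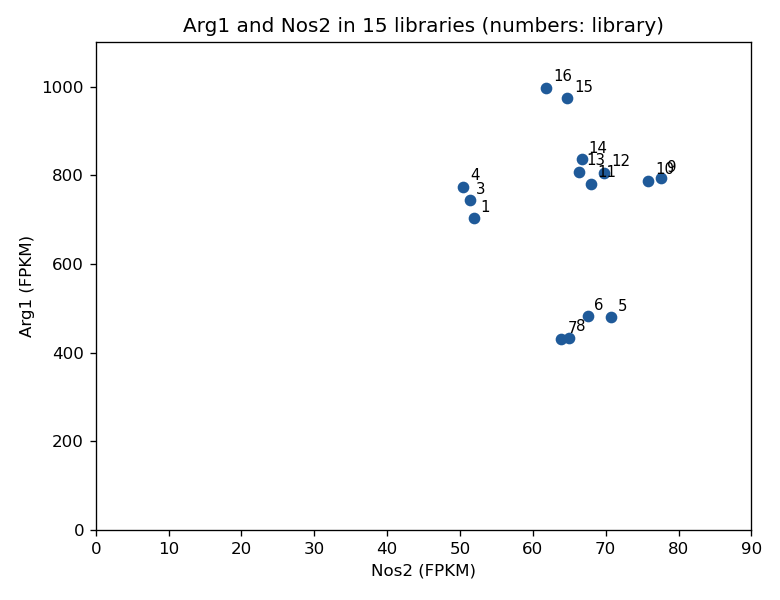
Arg1 (vertical axis, FPKM) against Nos2 (horizontal axis, FPKM) with 1 numbered point per library and both axes starting at 0. Libraries 5 to 8 lie low on the Arg1 axis at 430.4 to 482 FPKM with Nos2 at 63.9 to 70.7 FPKM, while libraries 1, 3 and 4 lie low on the Nos2 axis at 50.5 to 51.9 FPKM.

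Ass1 and Asl, the pair of enzymes that recycle citrulline, varied little and did not share an order. Ass1 was lowest in library 10 at 68.1 FPKM, had a median of 81.9 FPKM and was highest in library 5 at 90.8 FPKM. Its 3 highest values were in libraries 5, 8 and 7. Asl was lowest in library 5 at 11.6 FPKM, had a median of 13.3 FPKM and was highest in library 3 at 14.4 FPKM, and libraries 5, 6, 7 and 8 held its 4 lowest values. The gap was small for Asl, since the highest of these 4 was 12.6 FPKM in library 7 and the lowest of the others 12.9 FPKM in library 11. The Ass1 to Asl ratio ranged from 5.08 in library 13 through a median of 5.67 to 7.85 in library 5. Of the genes with a median of at least 10 FPKM, 53.0% had a ratio of highest to lowest as large as the 1.33 of Ass1, and 76.3% one as large as the 1.25 of Asl. Ass1 spans 31470207 to 31520672 of chromosome 2 (plus strand) and Asl spans 130011258 to 130029247 of chromosome 5 (minus strand).

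Odc1, whose product makes putrescine from the ornithine that arginase releases, was abundant and even. It ranged from 348 FPKM in library 15 through a median of 392 FPKM to 447 FPKM in library 9. Its lowest values, 348 and 352 FPKM, were in libraries 15 and 16, the libraries with the most Arg1. The Odc1 to Arg1 ratio therefore ran from 0.353 in library 16 to 0.909 in library 7, with a median of 0.559. Odc1 spans 17544794 to 17551505 of chromosome 12 (plus strand).

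Sequence before the start that RefSeq gives is shown for the 3 of the 10 members that the RefSeq promoter table (GRCm38.p6) held. This sets the abundant Odc1 and Ass1 beside Il4i1, which had a median of 0.0742 FPKM. Each is the 250 bases before the start on the plus strand, at chr12:17544623-17544872 for Odc1, chr2:31470020-31470269 for Ass1 and chr7:44836038-44836287 for Il4i1. GENCODE starts all 3 genes further upstream, so that the ends of the Odc1 and Ass1 stretches and the whole Il4i1 stretch lie inside the spans it gives these genes. Capitals mark matches on either strand to any of 4 motifs, none of which overlapped another here. One is the E-box, spelled CACGTG. Another is the TATA box, searched for as TATAAA. The GC box was searched for as GGGCGG. The last is a site of the type bound by STAT factors, with the letters TTCNNNGAA.
Odc1: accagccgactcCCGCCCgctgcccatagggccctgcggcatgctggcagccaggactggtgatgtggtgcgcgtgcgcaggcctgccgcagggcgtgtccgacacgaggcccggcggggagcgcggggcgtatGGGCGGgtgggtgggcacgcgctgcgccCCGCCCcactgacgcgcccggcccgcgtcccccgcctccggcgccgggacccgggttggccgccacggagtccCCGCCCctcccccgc
Ass1: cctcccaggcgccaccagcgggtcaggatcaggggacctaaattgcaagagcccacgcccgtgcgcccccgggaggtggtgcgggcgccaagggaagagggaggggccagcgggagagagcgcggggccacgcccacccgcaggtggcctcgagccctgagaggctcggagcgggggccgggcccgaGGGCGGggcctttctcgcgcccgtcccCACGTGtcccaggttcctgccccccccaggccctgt
Il4i1: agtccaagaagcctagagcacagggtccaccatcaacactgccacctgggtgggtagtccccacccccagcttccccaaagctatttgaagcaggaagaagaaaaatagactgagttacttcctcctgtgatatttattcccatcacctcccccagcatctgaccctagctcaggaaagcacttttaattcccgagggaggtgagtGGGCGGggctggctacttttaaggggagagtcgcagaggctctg
The Odc1 stretch was 80.0% G or C with 35 CG pairs, the Ass1 stretch 75.6% with 23, and the Il4i1 stretch 53.2% with 3, against medians of 52.4% and 6 over the 32851 promoters of the table. GGGCGG matched 4 times before Odc1 and 1 time each before Ass1 and Il4i1, and it was found in 32.7% of all promoters of the same length. CACGTG was found in the Ass1 stretch, starting at position -36, inside the span GENCODE gives the gene, and in 6.02% of all promoters. TATAAA, found in 12.4% of all promoters, and TTCNNNGAA, found in 7.02%, had no match in these 3 windows.

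The 3 enzymes that act on tryptophan were near the lower limit of the libraries, so their reads are given. The steps of the values gave 6 to 65 reads per library for Ido1, 6 to 23 for Ido2 and 0 to 14 for Il4i1, as the smallest whole numbers that fit. Summed over the 15 libraries these were 355, 204 and 86 reads. These reads imply gene lengths of 1771 bases for Ido1, 8002 for Ido2 and 2047 for Il4i1, against exonic lengths in GENCODE of 1825, 3636 and 4080 bases. With the GENCODE lengths the sums would be 366 reads for Ido1, 93 for Ido2 and 171 for Il4i1, which would put Il4i1 above Ido2. The 93 for Ido2 would not come from whole reads in every library, since the steps gave the smallest whole numbers that fit. The reads and intervals given for Ido2 and Il4i1 hold only for the lengths that the steps imply. For comparison, the level of Asl, the least abundant of the other 7 members, corresponded to an estimated 2165 reads in its lowest library with the exonic length of GENCODE.

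Ido1 ranged from 0.0854 FPKM in library 4 through a median of 0.260 FPKM to 0.971 FPKM in library 7. Library 7 had 65 reads, with an exact 95% Poisson interval of 50.2 to 82.8, and library 8 had 55 reads, while libraries 5 and 6 had 24 and 20. Libraries 13 and 16 followed with 40 and 38 reads, and libraries 4 and 10 had 6 reads each, with an interval of 2.20 to 13.1. The intervals cover counting error only. The intervals of libraries 7 and 8 did not overlap with those of libraries 5 and 6, although these 4 libraries held the lowest values of Arg1, Arg2 and Slc7a2. Ido1 and Ido2 are neighbours on chromosome 8, spanning 24584136 to 24597009 and 24531892 to 24576333 with both on its minus strand.

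Ido2 was highest in library 13 at 0.0724 FPKM, or 23 reads, and lowest in library 12 at 0.0190 FPKM, or 6 reads. Its 4 lowest values were in libraries 9, 10, 11 and 12, with 6 or 7 reads each. The interval for 6 reads, 2.20 to 13.1, overlapped with that of every other library except library 13, so this order rests on few reads. Il4i1 had 14 reads in each of libraries 9 and 10, and was listed at 0 in libraries 7 and 16, where 3 reads would correspond to 0.039 and 0.037 FPKM. Il4i1 spans 44816387 to 44840809 of chromosome 7 (plus strand), and its exons overlap those of Nup62, Atf5 and Tbc1d17 in the annotation. As for Arg2, its reads cannot be told apart from theirs with certainty, so its low level carries that limit.

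**Figure D3:**
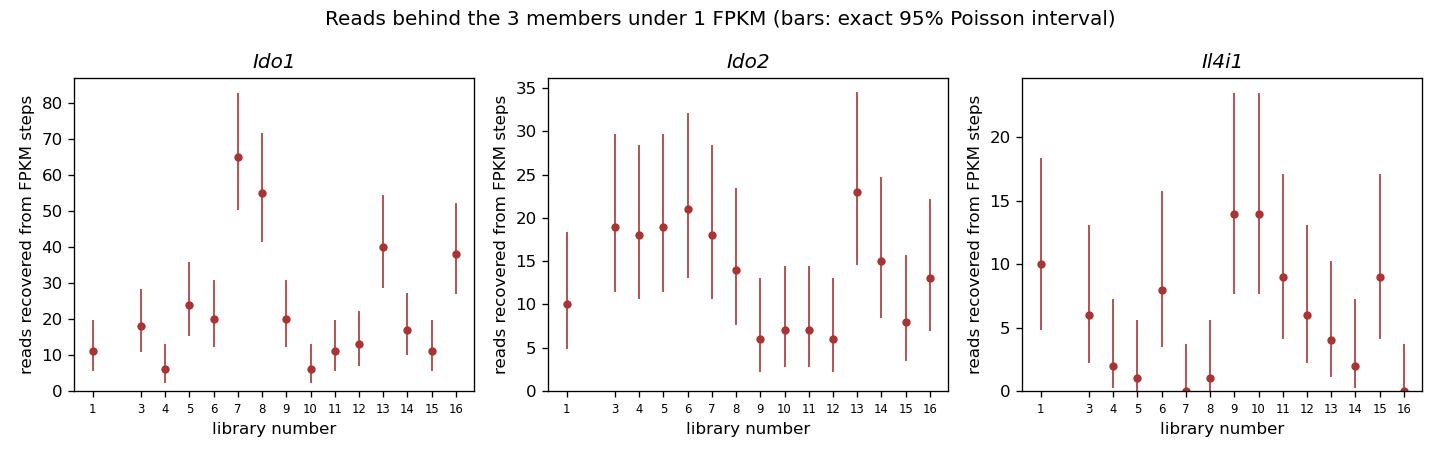
Reads recovered from the steps of the FPKM values (vertical axis, starting at 0) for Ido1, Ido2 and Il4i1 against library number, with exact 95% Poisson intervals as bars. Ido1 reaches 65 and 55 reads in libraries 7 and 8, Ido2 stays at or under 23 reads and Il4i1 at or under 14.

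Co-variation was described by which libraries stood at the ends of each gene's order. Because the libraries formed such sets, no correlation pooled over the 15 libraries was tested. Of the 7 members with a median of at least 1 FPKM, 4 (57.1%) had their 4 lowest values in libraries 5, 6, 7 and 8, namely Arg1, Arg2, Slc7a2 and Asl. Over all 10657 genes with such a median this held for 5.06%. These include genes of lower level than any of the 7 members, and no share was counted over genes of the members' level alone. After rescaling to equal FPKM totals the order with libraries 5 to 8 lowest held for 3 of the 7, Arg1, Arg2 and Slc7a2. When each member was divided by the summed macrophage list, it held for 2, Arg1 and Slc7a2. The opposite order, with the 4 highest values in libraries 5 to 8, held for 0 of the 7 members and for 13.3% of all genes. Libraries 9, 10, 11 and 12 held the 4 highest values of Arg2 and Slc7a2, 2 of the 7, against 3.73% of all genes. This second count was 1 after rescaling to equal FPKM totals or division by the macrophage list (Arg2 alone) and 4 under median-of-ratios scaling (Arg2, Slc7a2, Nos2 and Odc1). Libraries 13 to 16 held the 4 highest values of Arg1, against 1.44% of all genes, which was no longer so under median-of-ratios scaling or division by the macrophage list. Libraries 1, 3 and 4 held the 3 lowest values of Nos2, against 0.535% of all genes, under every scaling tried. The libraries counted were chosen with results of these data known, and only libraries 5 to 8 were counted at both ends. The shares of all genes therefore do not measure how unusual these orders are.

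Several marker lists set libraries 5 to 8, where Arg1, Arg2, Slc7a2 and Asl were lowest, apart from the other 11, some with higher and some with lower sums. The summed T cell list was 153 to 161 FPKM in libraries 5 to 8 and 30.9 to 57.7 FPKM in the other 11, and the summed hepatocyte list was 318 to 423 FPKM in libraries 5 to 8 and 87.5 to 211 FPKM in the other 11. The NK cell list summed to 15.5 to 17.9 FPKM in libraries 5 to 8 and 2.32 to 6.46 FPKM in the other 11. Among lists of cell types, lower sums were found for Kupffer cell markers, which name the resident macrophages of the liver. They summed to 160 to 196 FPKM in libraries 5 to 8 and 219 to 311 FPKM in the other 11. Lower sums were also found for markers of liver tumour or biliary epithelium. These summed to 584 to 636 FPKM in libraries 5 to 8 and 769 to 1108 FPKM in the other 11. Lists of cell states also set libraries 5 to 8 apart, as given below. Of the 8 Kupffer cell genes, 4 had their 4 lowest values in libraries 5 to 8, against 5.06% of all genes. The epithelial sum was mostly Spp1, which macrophages also express, with a median of 720.1 FPKM. The ranges overlapped for the other lists of cell types. The stellate or fibroblast sum was 242 to 265 FPKM in libraries 5 to 8 and 253 to 399.9 FPKM in the other 11, the neutrophil sum 155 to 190 FPKM in libraries 5 to 8 and 165 to 262 FPKM in the other 11, and the endothelial sum 172 to 242 FPKM in libraries 5 to 8 and 79.6 to 201 FPKM in the other 11. In bulk libraries, fewer cells of a type and less RNA per cell cannot be told apart. The summed macrophage list was lowest in library 5 at 11576 FPKM and highest in library 11 at 14600 FPKM, a narrower range than that of Arg1. The part of these cells in the levels of the members was not tested. Cps1, the hepatocyte enzyme at the entry of the urea cycle, was at 0.0282 to 2.20 FPKM, and Otc, the next enzyme, at 0.0108 to 0.244 FPKM.

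**Figure D4:**
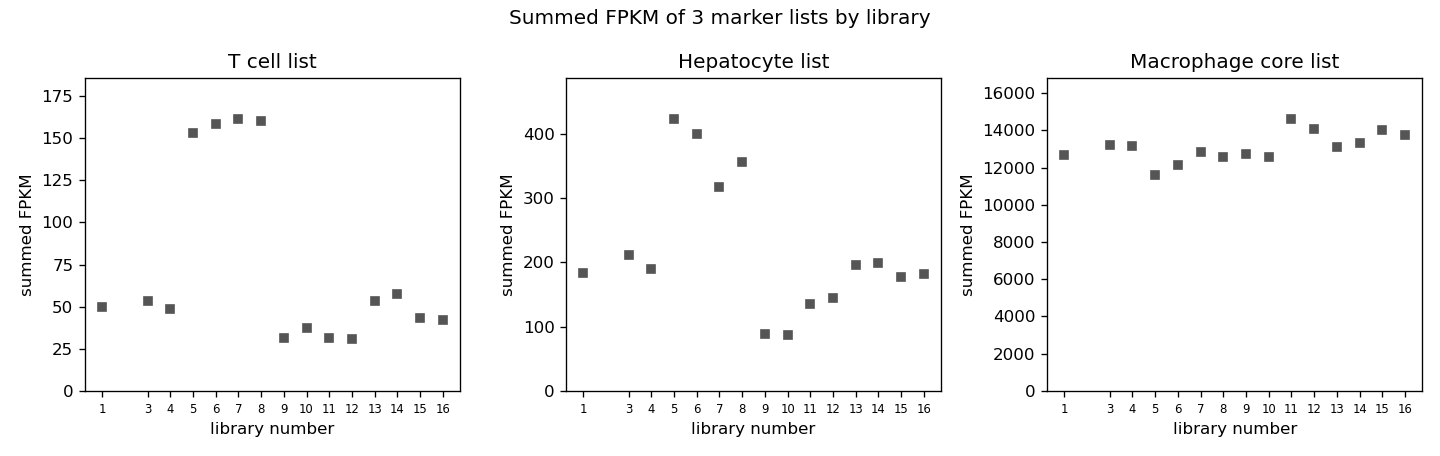
Summed FPKM (vertical axes, starting at 0) of the T cell, hepatocyte and macrophage marker lists against library number, with 1 point per library. The T cell and hepatocyte sums are highest in libraries 5 to 8, at 153 to 161 FPKM and 318 to 423 FPKM.

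Other genes of the pathways came from 7 lists with 73 genes, of which 71 were found in the table and 49 had a median of at least 1 FPKM. Libraries 5 to 8 held the 4 lowest values of 7 of these 49 and the 4 highest of 5, against 5.06% and 13.3% of all genes. Around nitric oxide, Nos1 and Nos3 had medians of 0.0431 and 2.40 FPKM, so Nos2 was the main synthase transcript. Gch1, which makes the first step of the synthase cofactor tetrahydrobiopterin, had a median of 30.2 FPKM, with its 4 lowest values in libraries 5 to 8 and its 4 highest in libraries 9 to 12. Its range was 25.9 to 42.3 FPKM.

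Among polyamine genes, Smox, which encodes spermine oxidase, had the same order as Gch1, from 32.7 to 63.4 FPKM with a median of 45.2 FPKM. Oaz1, the antizyme that directs ornithine decarboxylase to degradation, also shared it and ranged from 192 to 269 FPKM. Eif5a, the translation factor modified with spermidine, had its 4 lowest values in libraries 5 to 8 within a range of 352 to 437 FPKM. Azin1, an inhibitor of the antizymes, had its 4 highest values there, within 10.7 to 16.5 FPKM. Sat1, the acetyltransferase that marks polyamines for export, had a median of 292 FPKM, Oat, which competes for ornithine, 44.1 FPKM, and Srm, the spermidine synthase, 36.1 FPKM.

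In the kynurenine list 4 of 9 listed genes had a median of at least 1 FPKM. Tdo2, the dioxygenase known from liver, had its 4 highest values in libraries 5 to 8 and ranged from 0.189 to 3.71 FPKM, with a median of 1.30 FPKM that exceeded the medians of Ido1 and Ido2. Kmo, the kynurenine hydroxylase, had its 4 highest values in the same libraries, within 0.786 to 1.95 FPKM. Kynu had a median of 0.568 FPKM and Haao 0.473 FPKM. The hepatocyte sum was highest in these libraries too, as given above, and its part in Tdo2 was not tested. Of the receptor and transport genes, Ahr, which senses kynurenine and other ligands, had a median of 11.6 FPKM and Slc7a8, an amino acid transporter, 23.7 FPKM, both with their 4 lowest values in libraries 5 to 8. Wars, the tryptophanyl-tRNA synthetase and an interferon-induced gene, had its 4 highest values there, within 16.4 to 27.1 FPKM.

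**Figure D5:**
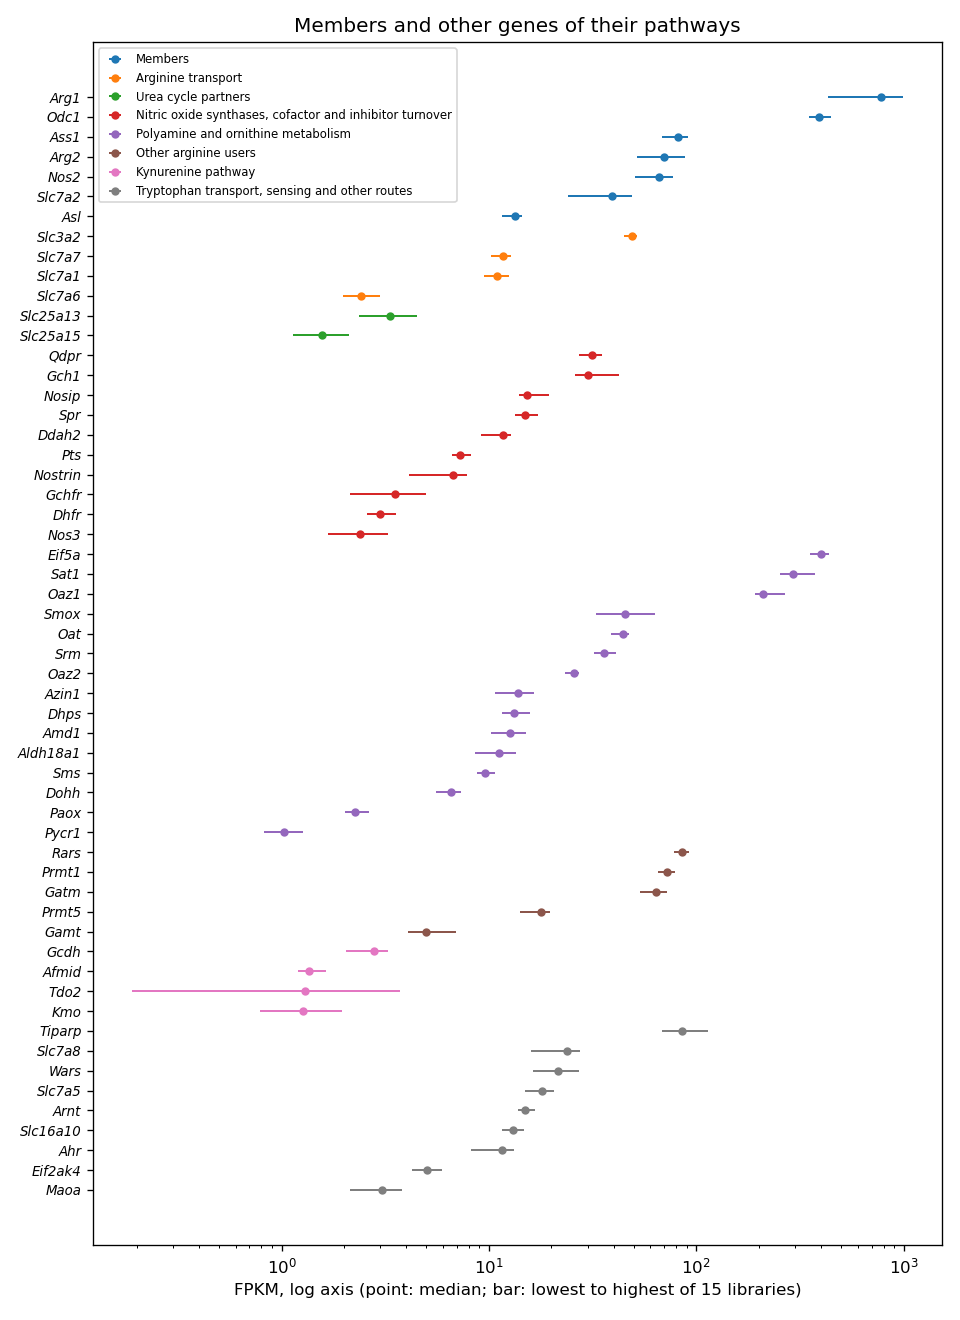
Median FPKM (points, log axis) and range from the lowest to the highest of 15 libraries (bars) of the 7 members and the 49 pathway genes with a median of at least 1 FPKM, coloured by list. Arg1 and Odc1 stand highest among the members with medians of 782 and 392 FPKM, and the genes of the kynurenine list lie at 1.28 to 2.80 FPKM.

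The genes whose order over the 15 libraries was most like that of a member were found with Spearman's rho over the 10650 other genes with a median of at least 1 FPKM, as a measure of likeness with no test. For Arg1 the nearest were Msn, which encodes the membrane linker moesin (rho 0.99), the scavenger receptor gene Msr1 (0.98), the cholesterol exporter gene Abca1 (0.96), Itgam, which encodes CD11b (0.96), and the lectin gene Clec4d (0.96). Itgam ranged from 104 to 212 FPKM, a spread close to that of Arg1. For Slc7a2 the nearest were Arl4c (0.98), Dyrk2 (0.97), Rbm47 (0.97), Blcap (0.96) and the collagenase gene Mmp13 (0.96), which ranged from 88.3 to 203 FPKM. For Arg2 they were Blcap (0.97), Rhou (0.95), Mxi1 (0.94), the heme synthesis gene Alas1 (0.94) and Stat5a (0.94). Many genes were this near, since rho reached 0.9 for 42 genes with Arg1, 58 with Slc7a2 and 39 with Arg2. The libraries formed sets, so here and below a high rho can largely repeat the order of the sets.

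The other members had fewer near genes. Arid5b (0.93) was the only gene at or above 0.9 for Nos2, followed by Sdc4 (0.88), Npy (0.87), Usp42 (0.86) and Zranb1 (0.85). Odc1 had 3 such genes and its nearest were Jdp2 (0.92), the histone demethylase gene Kdm1a (0.91), Nrg1 (0.90), Eno2 (0.90) and Tnc (0.89). Ass1 had 1, and its nearest were Gtpbp1 (0.90), Wdyhv1 (0.89), the sterol hydroxylase gene Cyp27a1 (0.89), Gm43305 (0.88) and Apol7c (0.87). Asl had 0, and its nearest were the mitochondrial channel gene Vdac1 (0.88), Npl, Pon2 and Rab32 (0.84 each) and Bank1 (0.83).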

How the data were processed

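Total RNA of the sorted cells was extracted with TRIzol and sequenced by RNA-seq, per the labels' protocols. Of tools and builds, fastp, HISAT, HTSeq and mm10 appear in the submitters' processing notes. The table deposited by the authors is called FPKM in its name; the labels give neither its formula nor its annotation or strand setting. All 15 value columns were used as macrophage libraries of unknown treatment, because their names share only the prefix TAM with the 16 samples, and 0 columns were left out.

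A gene's values were divided by steps common to a library, and 65.3% of 7094 low genes (above 0 in every library, under 3 FPKM) came out as whole reads within 0.02. Depth followed from these steps and GENCODE M21 exonic lengths. The procedure was tested on simulated counts. A permutation test of correlations had been planned and was not used, because the libraries formed sets under 6. Libraries were clustered by average linkage on log2(FPKM + 1). The members, the gene lists and the library sets counted were chosen with results of these data known. The named genes are all members, pathway genes of fixed lists, and the 5 genes most like each member. Alternatives were another scaling, no filter, division by the macrophage list and leaving out each library. Python 3.11.15, pandas 2.3.3 and scipy 1.17.1 were used.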

Additional observations from a re-analysis of the deposited data

How the results depend on the processing

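Median levels of the 10 members and the median Arg1 to Nos2 ratio moved by less than the spread over libraries (1 SD) in all 187 combinations of result and setting, which were both rescalings and leaving out each of 15 libraries. With 1 of 15 libraries left out, a median can move only to a point between its neighbours in the order. The Arg1 to Nos2 ratio does not depend on rescaling. Most of these settings could therefore hardly have moved a result by 1 SD. Leaving out libraries gave 778 to 784 FPKM for Arg1 and 0.0617 to 0.0746 FPKM for Il4i1. The number of members with libraries 5 to 8 lowest was 4 under median-of-ratios scaling and 3 after rescaling to equal totals, where Asl was lost. After division by the macrophage list it was 2, where Arg2 was lost as well. It was also 4 with no filter and without each library in turn. Dropping the filter or a library can only keep or raise such a count, so those settings could not show a loss. The number with libraries 9 to 12 highest was 1 after rescaling to equal totals, 1 after division by the macrophage list, 4 under median-of-ratios scaling and 2 to 3 when single libraries were left out, with 3 only without library 5. The number with libraries 13 to 16 highest, 1 in the values as deposited, was 0 under median-of-ratios scaling and after division by the macrophage list. The number with libraries 1, 3 and 4 lowest stayed at 1 under both rescalings and division by the macrophage list, the settings that could have lowered it. The cause of these shifts was not tested. The median-of-ratios factors were 1.07 to 1.10 in libraries 5 to 8, 0.9001 to 0.953 in libraries 9 to 12 and between these in the others. Of the 35 genes named for likeness, 7 were also among the nearest 5 by Pearson's r of log2(FPKM + 1), so those names depend on the measure. The planned change of pseudocount was not run, as no Pearson correlation was reported as a result. No paired analysis was possible because no column could be tied to a sample or its replicate number. Depth limits Ido1, Ido2 and Il4i1, which rest on 0 to 65 reads per library.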

Other observations

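The first principal component of the log2 values held 57.3% of their variance over libraries. For Arg1 the values were 703, 744 and 775 FPKM in libraries 1, 3 and 4. They were 480, 482, 430.4 and 433 FPKM in libraries 5 to 8, and 793, 787, 782 and 806 FPKM in libraries 9 to 12. Libraries 13 to 16 had 808, 836, 974 and 998 FPKM, so that within this last set libraries 15 and 16 stood apart from 13 and 14. For Slc7a2 the values were 41.6, 38.4 and 40.1 FPKM in libraries 1, 3 and 4, then 27.0, 25.5, 23.9 and 25.6 FPKM in libraries 5 to 8. Libraries 9 to 12 had 47.8, 49.2, 42.3 and 45.1 FPKM, and libraries 13 to 16 had 36.6, 37.0, 39.1 and 39.3 FPKM. Which treatments these libraries received is not known here.

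The summed interferon gamma response list, with 14 genes, was highest in libraries 8, 5, 7 and 6 and reached 2767 FPKM, against a median of 2086 FPKM. The summed inflammatory activation list, with 11 genes, was lowest in the same libraries, down to 11737 FPKM against a median of 15534 FPKM. Of its 11 genes, 7 had their 4 lowest values in libraries 5 to 8, against 5.06% of all genes, while Nfkbiz had its 4 highest there. Nos2 is a known target of interferon gamma, and it was near its median in these libraries. The hypoxia and glycolysis sum was 1737 to 1760 FPKM in libraries 5 to 8 and 1998 to 2162 FPKM in the other 11. The cell cycle sum was 399 to 412 FPKM in libraries 5 to 8 and 334 to 394 FPKM in the other 11. The alternative activation ranges overlapped, at 701 to 734 FPKM in libraries 5 to 8 and 695 to 946 FPKM in the other 11. The summed dendritic cell list was highest in libraries 9 to 12, which also held the 2 highest Il4i1 read counts of 14 each. That sum was mostly Ccr7 and Fscn1, with medians of 67.3 and 58.7 FPKM, and of the 4 genes with a median of at least 1 FPKM Ccr7 alone had its 4 highest values in libraries 9 to 12. Zbtb46 and Clec9a, markers of conventional dendritic cells, had their 4 highest values in libraries 5 to 8 instead, with medians of 1.11 and 1.66 FPKM.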
